A study of Mus musculus with 4 samples.

Results

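The stromal matrix genes described here are 10 genes of the connective tissue of the eye, chosen by name. They are Kera, Lum and Dcn, which mark the keratocytes of the cornea, and Fn1, Postn, Tnc, Sparc, Lox, Acta2 and Pdgfrb, which are high in activated fibroblasts. All probe sets annotated to a single symbol among these were taken, which gave 20 of the 45101 probe sets, and 10 of the 18193 named genes of the array. Total RNA came from 4 whole eyes of C57BL/6 mice, 2 from mice left without surgery (intact) and 2 from mice whose spleen was removed (splenectomized). Every mouse, in both groups, was given 10000 E.G7-OVA cells carrying luciferase in the anterior chamber, and the eye with its tumour was taken on day 15. E.G7-OVA is a T lymphoma line of the same mouse strain that makes chicken ovalbumin. Animals of both sexes, older than 7 weeks, were used, and the sex of each animal is not given in the labels. The Y-linked genes Eif2s3y, Kdm5d and Uty were Present on all 4 arrays. Eif2s3y read 137.5 and 209 in intact and 299.5 and 274 in splenectomized mice, with no overlap. The groups did not overlap for Kdm5d either, which was higher in splenectomized mice, and overlapped for Uty. The X-linked Xist was low, at 6.30 and 21.3 in intact and at 21.2 and 14.8 in splenectomized mice, and Absent on intact replicate 1. The part of sex in the values below was not tested. There was no eye without a tumour and no sham operation among the samples, so no level of a healthy cornea is given, and removal of the spleen and surgery as such cannot be told apart.

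Keratocytes are the quiet resident cells of the corneal stroma. They make small leucine-rich proteoglycans, which bind collagen fibrils and keep their spacing regular, and with it the transparency of the cornea. After injury or inflammation keratocytes can turn into fibroblasts and myofibroblasts, which lay down fibronectin, tenascin C and periostin, crosslink collagen with lysyl oxidase, and in the contractile state make smooth muscle actin. The same matrix genes are also used by the sclera, the iris, the trabecular meshwork and the walls of vessels, and fibronectin and SPARC by other cells too, so a whole eye does not assign their RNA to the cornea. In such bulk samples, fewer cells of a type and less RNA per cell cannot be told apart.

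The values are MAS5 signals, linear intensities that the authors scaled on each array, with a detection call of Present or Absent for each probe set. Present calls made up 53.2% to 58.6% of probe sets per array, and the log2 signals of any pair of arrays correlated at 0.94 to 0.98 across probe sets, which are not independent replicates. Probe sets called Present on 2 or more arrays were tested, 26285 in all and 14 of the 20 that belong to the matrix genes. The 14 cover all 10 genes. The intact replicate 1 array stands apart. Its summed signal of 9 lens markers was 15144, against 31662 to 37025 on the other 3 arrays, and that of 9 retina and pigment epithelium markers was 2456, against 5533 to 9649. Its summed signal of 9 T lymphoma and T cell markers was the highest, at 15695 against 10767 to 12518. Errors are SD of 2 arrays, and p-values measure the spread between the arrays, which the labels do not number by animal.

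Most matrix genes gave a moderately higher signal in the eyes of splenectomized mice, and the exception was Acta2. Taking for each gene its tested probe set of highest mean log2 signal, 9 of the 10 genes were higher and 8 were higher with no overlap between the groups. Among all 13148 genes treated in the same way, 21.7% were higher with no overlap and 55.1% were higher at all. The median log2 fold change of the 14 tested probe sets was 0.45, beside a median of 0.03 over all 26285. No probe set passed the threshold in limma with Benjamini-Hochberg adjustment, neither among the matrix genes (smallest adjusted p = 0.336, for Postn) nor among all (0 of 26285, 0%). At an unadjusted p under 0.05 in limma, 7 of the 14 were higher and 0 lower, where 5.49% of all probe sets were higher and 2.58% lower. With each array centred on its median signal, 2 of the 14 had such a p. The median of the 14 was then 0.36, beside -0.06 over all 26285. In a fit without intact replicate 2, 5 of the 14 passed after adjustment (Kera, Dcn, Fn1, Postn and 1 probe set of Sparc), and without intact replicate 1 only Tnc did. Such fits take their spread from the remaining pair alone.

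**Figure D1:**
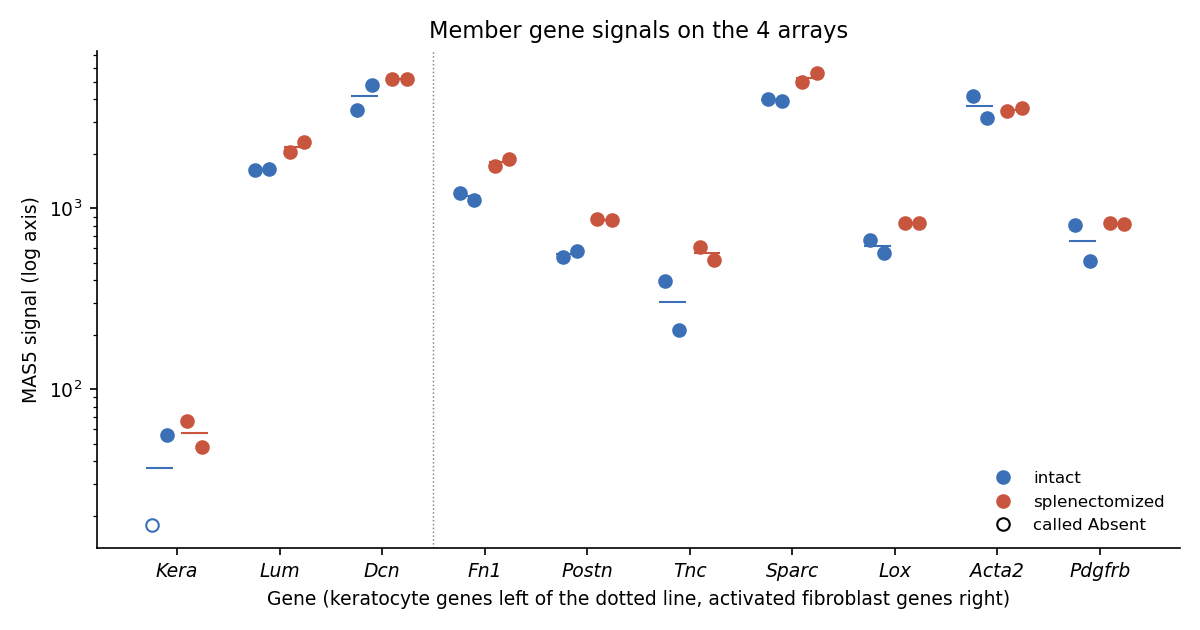
MAS5 signal on a log axis of 1 probe set for each of the 10 genes, with a point for each array and a line at the mean of each group of 2. Both splenectomized arrays lie above both intact arrays for 8 genes, the groups overlap for Kera and Acta2, and the open point is the Absent call of Kera on the intact replicate 1 array.

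Of the keratocyte genes, lumican (Lum), a proteoglycan that limits the thickness of collagen fibrils, separated the groups most clearly. Its signal was 1622 and 1653 on the intact arrays and 2048 and 2320 on the splenectomized arrays. Both splenectomized arrays were above both intact arrays, and the intact pair was nearly equal. The fold was 1.33 (log2 fold change 0.41, SE 0.14, adjusted p = 0.563 in limma).

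Decorin (Dcn), a proteoglycan that binds collagen and transforming growth factor beta, was at 3516 and 4791 in intact and at 5191 and 5155 in splenectomized mice. The groups did not overlap, but the intact arrays lay farther from each other than intact replicate 2 lay from either splenectomized array. Its fold was 1.26, with a 95% interval of 0.908 to 1.75 (adjusted p = 0.695 in limma). Without intact replicate 1 the log2 fold change of Dcn was 0.11, and without intact replicate 2 it was 0.56. A further Dcn probe set was Absent on all 4 arrays, at 1.5 to 15.3, and was not tested.

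Keratocan (Kera), the keratan sulfate proteoglycan most particular to keratocytes, had low signals. It was Absent on the intact replicate 1 array at 17.7 and Present on the others, at 56.1 on intact replicate 2 and at 66.5 and 47.9 on the splenectomized arrays. Intact replicate 2 thus lay between the splenectomized arrays, and the groups overlapped. The fold of 1.79 had a 95% interval of 0.656 to 4.89 (adjusted p = 0.729 in limma), and the log2 fold change of 0.84 was 0.01 without intact replicate 1.

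The 3 keratocyte genes lie next to each other on chromosome 10, in the order Dcn, Lum, Kera among protein-coding genes of the RefSeq annotation of GRCm38.p6. The next gene in that row is Epyc, which encodes epiphycan, another proteoglycan of the family. Epyc was at 26.3 and 61.0 in intact and at 41.9 and 57.7 in splenectomized mice, with overlapping groups. Its lowest array was intact replicate 1, as for Kera and Dcn, and Lum had a gap of 0.03 on the log2 scale between the intact arrays, against 0.45 for Dcn and 1.66 for Kera.

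Among the genes of activated fibroblasts, fibronectin (Fn1) and periostin (Postn) had the smallest unadjusted p in limma, at 0.0053 and 0.0045. Fn1, the adhesive glycoprotein of the provisional matrix of wounds, was at 1215 and 1110.4 in intact and at 1707 and 1877 in splenectomized mice. Both splenectomized arrays were higher, at a fold of 1.54 with a 95% interval of 1.21 to 1.96 (adjusted p = 0.358 in limma). A second Fn1 probe set was Present on 1 array only and was not tested. It read 21.9 and 21.8 in intact and 24.4 and 31.6 in splenectomized mice.

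Postn, a matricellular protein, one that signals to cells from the matrix without building it, was at 539 and 584 in intact and at 873 and 859.8 in splenectomized mice. The fold was 1.54, with a 95% interval of 1.22 to 1.96 (adjusted p = 0.336 in limma). The gap between the splenectomized arrays was 0.02 on the log2 scale and that between the intact arrays 0.12, both smaller than the log2 fold change of 0.63. Of all probe sets tested, 89.2% had a smaller log2 fold change than Postn.

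Tenascin C (Tnc), a matricellular protein that is scarce in adult tissue and made at sites of repair, had the highest fold of the 10 genes. Its signals were 397 and 213 in intact and 608 and 519.9 in splenectomized mice. The groups did not overlap, and the intact arrays differed from each other by 0.90 on the log2 scale, close to the log2 fold change of 0.95 (fold 1.93, adjusted p = 0.553 in limma). That log2 fold change was 1.4 without intact replicate 1 and 0.50 without intact replicate 2. The intact replicate 2 array was the low one here, unlike for Dcn and Kera, where it was intact replicate 1. Another Tnc probe set was Absent on all 4 arrays, at 0.20 to 3.90.

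SPARC (Sparc), a collagen-binding protein of remodelling tissue, was read by 2 tested probe sets that agreed in direction. The one of higher signal read 4038 and 3929.5 in intact and 4971 and 5572 in splenectomized mice, a fold of 1.32 (adjusted p = 0.582 in limma). The other read 1599 and 1526 in intact and 2163 and 2394 in splenectomized mice, a fold of 1.46 (adjusted p = 0.426 in limma). In both, the splenectomized arrays lay above the intact arrays and the intact pair differed by 0.04 and 0.07 on the log2 scale. Another Sparc probe set, Present on 1 array, read 20.7 and 18.1 in intact and 14.7 and 18.1 in splenectomized mice.

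Lysyl oxidase (Lox), which crosslinks collagen and elastin, was read by 3 tested probe sets. The brightest was at 671 and 569 in intact and at 834 and 833 in splenectomized mice, 1.35-fold higher with no overlap (adjusted p = 0.566 in limma). The next was at 228 and 163 in intact and at 215 and 261 in splenectomized mice, where the groups overlapped. The dimmest read 7.80 and 9.50 in intact and 17.7 and 7.90 in splenectomized mice, near the median signal of Absent calls, which was 6.10. Leaving out splenectomized replicate 1 moved its log2 fold change from 0.46 to -0.12, and leaving out splenectomized replicate 2 to 1.04, so the higher signal of Lox rests on the brightest probe set.

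Pdgfrb, the receptor for platelet-derived growth factor on fibroblasts and pericytes, was read by 2 tested probe sets. The brighter was at 806 and 508 in intact and at 825 and 819 in splenectomized mice. Intact replicate 1 came close to the splenectomized arrays, and the log2 fold change of 0.36 (adjusted p = 0.724 in limma) was 0.03 without intact replicate 2 and 0.69 without intact replicate 1. The dimmer was at 89.1 and 73.8 in intact and at 115 and 112 in splenectomized mice, 1.4-fold higher with no overlap (adjusted p = 0.641 in limma).

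Acta2, the smooth muscle actin of myofibroblasts, pericytes and smooth muscle, was the exception. Its signals were 4172 and 3158 in intact and 3429 and 3571 in splenectomized mice. The intact arrays held both the highest and the lowest value, with the splenectomized arrays between them. The fold was 0.964, with a 95% interval of 0.707 to 1.32 (adjusted p = 0.936 in limma). The interval ends below the folds of Lum, Fn1, Postn, Tnc, both Sparc probe sets and the brightest Lox probe set. It does not end below those of Dcn and the brighter Pdgfrb probe set. The 95% intervals of all of these overlap that of Acta2, as the one that begins highest, that of Postn, begins at 1.22. No difference between genes was tested. The log2 fold change of -0.05 was 0.15 without intact replicate 1 and -0.25 without intact replicate 2. This probe set has the suffix _s_at, which Affymetrix gives to sets that can match more than a single transcript. The other 2 Acta2 probe sets were Absent on all 4 arrays.

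**Figure D2:**
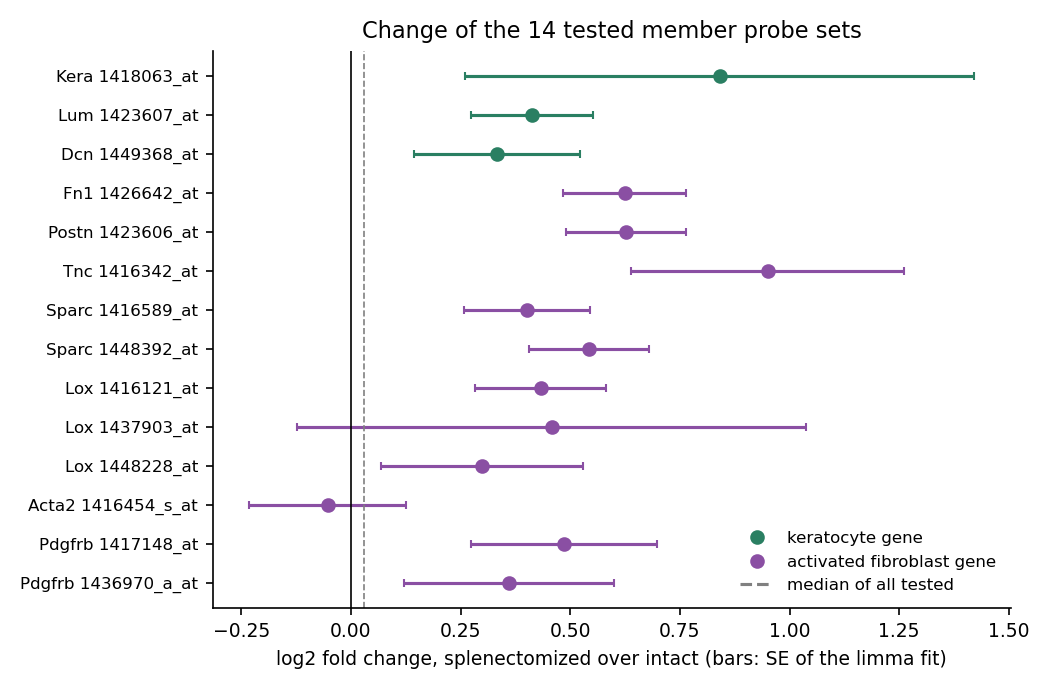
Log2 fold change of splenectomized over intact for each of the 14 tested probe sets, with the SE of the limma fit as bars and the median of all tested probe sets as a dashed line. Of these, 13 lie above 0 and Acta2 lies at -0.05, and Kera and the dimmest Lox probe set have the widest bars.

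Sequence around the transcription start was at hand in RefSeq (build GRCm38.p6) for 5 of the 10 genes, namely Postn, Tnc, Kera, Sparc and Acta2, as 7 windows of 250 bases before and 50 bases after a start. The windows of 4 genes are shown, to set 2 genes with higher signals and no overlap (Postn and Tnc) beside the 2 whose groups overlapped (Kera and Acta2). For Postn and Tnc, which have 2 listed starts each, the one listed last is shown. Capitals mark matches on either strand to TATAA of the TATA box, CCAAT of the box of that name, GGGCGG of Sp1 sites, TGANTCA of AP-1 sites or the CArG box of serum response factor, and none of these overlapped another. The CArG box was sought only in its strict form, CCWWWWWWGG with W for A or T.
Postn, chr3:54360857-54361156, + strand: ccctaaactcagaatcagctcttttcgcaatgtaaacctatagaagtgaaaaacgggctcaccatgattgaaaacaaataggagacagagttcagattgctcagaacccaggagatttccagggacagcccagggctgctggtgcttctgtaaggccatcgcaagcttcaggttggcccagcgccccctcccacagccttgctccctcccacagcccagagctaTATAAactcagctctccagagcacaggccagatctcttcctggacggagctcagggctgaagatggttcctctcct
Tnc, chr4:64046887-64047186, - strand: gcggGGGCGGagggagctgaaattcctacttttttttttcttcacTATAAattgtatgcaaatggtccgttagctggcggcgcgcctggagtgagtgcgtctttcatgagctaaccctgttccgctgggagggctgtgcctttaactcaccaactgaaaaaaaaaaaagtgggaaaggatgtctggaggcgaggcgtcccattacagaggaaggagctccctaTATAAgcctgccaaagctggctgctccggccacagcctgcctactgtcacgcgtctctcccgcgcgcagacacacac
Kera, chr10:97606955-97607254, + strand: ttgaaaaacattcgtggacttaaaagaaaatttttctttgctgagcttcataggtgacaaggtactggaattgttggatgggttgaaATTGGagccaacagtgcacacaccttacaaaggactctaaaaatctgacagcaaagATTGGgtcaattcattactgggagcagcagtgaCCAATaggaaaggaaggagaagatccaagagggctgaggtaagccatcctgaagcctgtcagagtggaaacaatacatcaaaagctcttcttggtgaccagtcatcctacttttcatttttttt
Acta2, chr19:34255324-34255623, - strand: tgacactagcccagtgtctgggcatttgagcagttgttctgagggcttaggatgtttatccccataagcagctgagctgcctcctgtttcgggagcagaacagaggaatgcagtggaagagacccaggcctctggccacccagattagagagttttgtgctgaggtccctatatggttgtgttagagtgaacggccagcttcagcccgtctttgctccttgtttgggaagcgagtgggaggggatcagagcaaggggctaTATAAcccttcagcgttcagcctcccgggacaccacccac
In Postn a TATAA begins 26 bases before this start, and in Tnc 27 bases before it, with another at 205. The windows not shown differ, as that of Postn holds no TATAA, and in that of Tnc it lies 126 bases before the start. Of all 32851 windows of this length in the table, 3.52% hold a forward TATAA that begins 20 to 40 bases before the start, as do 2 of these 7. Kera has CCAAT forward at 74 bases before the start and in reverse, read as ATTGG, at 107 and 163, and 37.4% of all windows hold CCAAT. In Acta2 a TATAA lies at base 11 after the listed start. The strict CArG box, held by 1.63% of all windows, and TGANTCA, held by 7.81%, were in none of the 7. The Acta2 window holds ccctatatgg and ccttgtttgg, which each differ from the strict form by a single letter and were not counted. A looser CArG box in these windows is therefore not excluded. GGGCGG, held by 35.7% of all, was in those of Tnc, and the Sparc window held no match. A match is a description of these letters and says nothing of a factor bound there.

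The question the grouping raises is whether the keratocyte genes and the genes of activated fibroblasts differed between the groups to a different degree. To answer it within each array, the log2 signal of each gene was taken relative to the mean of that gene over the 4 arrays and averaged over the 3 keratocyte and the 7 activated fibroblast genes. The keratocyte level was -0.62 and 0.09 on the intact and 0.32 and 0.21 on the splenectomized arrays. The activated fibroblast level was -0.08 and -0.40 on the intact and 0.23 and 0.25 on the splenectomized arrays. Both were higher in splenectomized mice with no overlap, by 0.53 and 0.48 on the log2 scale. The keratocyte difference rests largely on intact replicate 1, as it was 0.17 without that array and 0.89 without intact replicate 2. The activated fibroblast difference was 0.64 without intact replicate 1 and 0.32 without intact replicate 2. Over the 10 genes together the mean difference was 0.49, and it was 0.50 and 0.49 without these arrays in turn.

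The difference, activated fibroblast minus keratocyte level, averaged 0.03 ± 0.73 on the intact and -0.03 ± 0.08 on the splenectomized arrays (SD, n = 2 each). The groups overlapped, and their means differed by -0.05, far less than the SD of the intact pair. No test was made of this difference. The intact arrays lay at opposite ends, at 0.54 and -0.49, with the splenectomized arrays at -0.08 and 0.03 between them. In intact replicate 1 the keratocyte genes were low against the activated fibroblast genes, and in intact replicate 2 the reverse held. The sign of the difference between groups follows from which intact array is kept, at 0.47 without intact replicate 1 and -0.57 without intact replicate 2. Without Kera, the gene with the widest spread, it was 0.10, and without Acta2 it was 0.04.

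The keratocyte and activated fibroblast levels were set beside markers of other cells, and no test was made of their likeness. The activated fibroblast level put the arrays in the same order as the mean level of 10 macrophage markers (Cd68, Csf1r and others). The order ran from intact replicate 2 up through intact replicate 1 and splenectomized replicate 1 to splenectomized replicate 2. It rests in part on small gaps, as the splenectomized arrays were at 0.23 and 0.25 for the activated fibroblast level. For macrophage markers the intact arrays were at -0.42 and -0.47. The 11 further genes of activated fibroblasts had the splenectomized arrays in reverse order, and the 13 crosslinking genes described below shared the macrophage order. All 10 macrophage markers were tested and 9 were higher with no overlap. Their summed signal was 10832 to 13054 in intact and 19898 to 20973 in splenectomized mice, none of them was at 0, and their median log2 fold change was 0.97, beside 0.43 for the activated fibroblast genes. Of the endothelial markers 4 of 10 were higher with no overlap, beside 21.7% of all 13148 genes, and their median log2 fold change was 0.20. They summed to 1133 to 1277 in intact and 1369 to 1527 in splenectomized mice, with none at 0. Their mean level put the arrays in the order of the keratocyte level, not in that of the activated fibroblast level. The part of macrophages and vessels in the higher signal of the matrix genes was not tested.

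The keratocyte level was lowest on the intact replicate 1 array, as were the lens level (-1.14, against 0.12 to 0.52 on the others) and the retina and pigment epithelium level (-1.42, against -0.01 to 0.85). In contrast to the level of Kera, Lum and Dcn, these overlapped between the groups. The mean level of the 11 further genes of the corneal stroma overlapped too. It was -0.71 and 0.21 on the intact and 0.33 and 0.17 on the splenectomized arrays, which is the array order of the lens level. Of the lens markers 9 of 10 and of the retina and pigment epithelium markers 8 of 10 were tested, none was at 0, and the pigment epithelium gene Best1 was Absent on all 4 arrays. T lymphoma and T cell markers ran the other way on intact replicate 1, at 0.38 against -0.21 to -0.01, with 7 of 10 tested, none at 0, and Cd4 and Ptcra Absent on all 4 arrays. Epithelium markers of the cornea and conjunctiva were also lowest on intact replicate 1, at -0.52, and overlapped between the groups. The part of the share of host eye tissue in each sample was not tested.

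**Figure D3:**
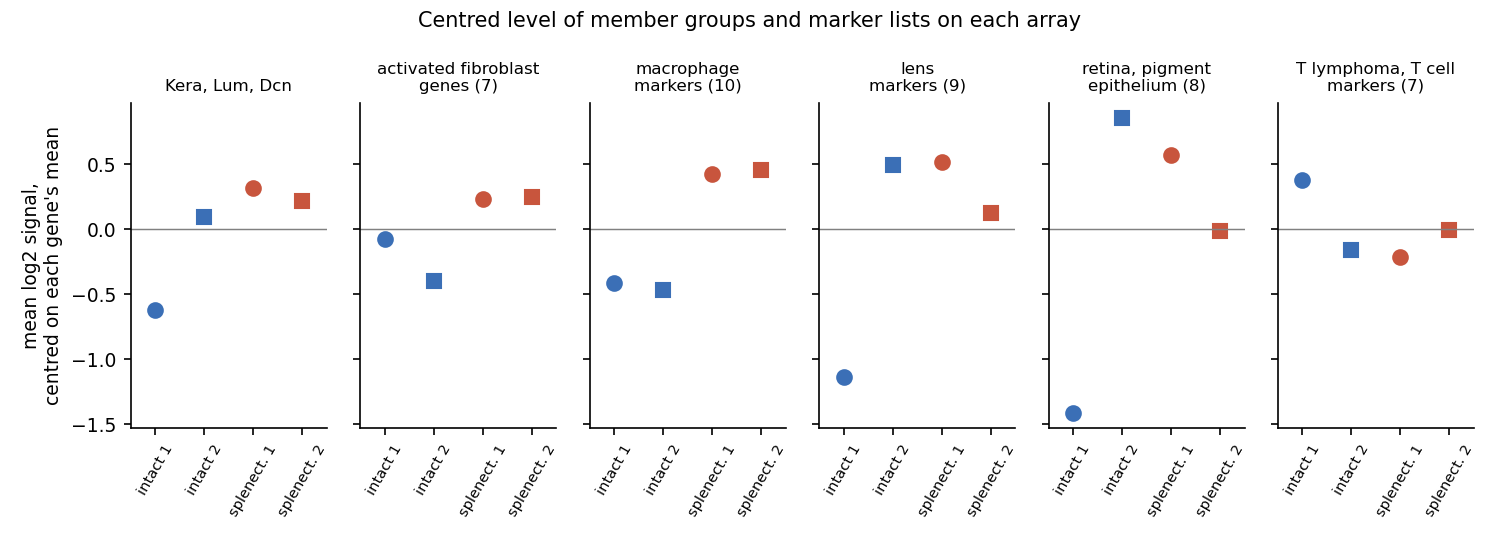
Mean log2 signal of each gene group on each array, relative to the mean of each gene over the 4 arrays, for the keratocyte and activated fibroblast genes and 4 marker lists, with intact arrays in blue and splenectomized arrays in red. Activated fibroblast genes and macrophage markers are lowest on intact replicate 2, while keratocyte genes, lens and retina markers are lowest on intact replicate 1, at -0.62, -1.14 and -1.42.

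The identity of the cells was checked on further markers. Beside Kera, Lum and Dcn, the markers listed for keratocytes were Ogn and Prelp, both proteoglycans, and they were Present on all 4 arrays. Ogn was at 156 and 540.1 in intact and at 584 and 485 in splenectomized mice, with overlapping groups. Prelp was at 105 and 244 in intact and at 252 and 285 in splenectomized mice, where the groups did not overlap. Of the 11 tested further genes of the corneal stroma, 9 were higher and 2 lower by the fitted change, namely Aldh3a1 and Chst5. Aldh3a1, an abundant corneal enzyme, was at 117 and 594 in intact and at 277 and 218 in splenectomized mice. It was lowest on intact replicate 1, as Ogn and Prelp were. Chst5, a sulfotransferase, was at 22.8 and 14.1 in intact and at 19.7 and 15.3 in splenectomized mice, Absent on 1 array. The groups overlapped for both. Of 5 markers listed for pericytes and smooth muscle, Rgs5 was Present on all 4 arrays at 453 to 856, Myh11, the smooth muscle myosin, on 2 at 16.7 to 19.9, and Cspg4, Des and Cnn1 on none. Of their wider list, Notch3, Kcnj8, Abcc9, Tagln, Mylk and Smtn were also Present on all 4 arrays. Actg2 was Absent on splenectomized replicate 1, and Lmod1 and Myocd were Absent on all 4 arrays.

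Related matrix and stromal genes were followed in 9 lists, with the 10 genes above left out. Of 102 listed genes 89 were tested, and 78 were higher and 11 lower in splenectomized mice. With no overlap, 50 were higher and 4 lower, beside 21.7% and 19.7% of all 13148 genes. At an unadjusted p under 0.05 in limma, 25 were higher and 0 lower, beside 7.07% and 2.41% of all genes, and 0 passed after adjustment. The median log2 fold change was 0.46, beside 0.05 over all genes. Without intact replicate 1 it was 0.27, beside -0.04 over all genes, with 68 of the 89 higher, and without intact replicate 2 it was 0.61, beside 0.10. In each list the 2 genes of smallest unadjusted p are named.

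All 13 tested genes of collagen modification and crosslinking were higher, 10 with no overlap and 6 at an unadjusted p under 0.05 in limma. Their median log2 fold change was 0.62. Without intact replicate 1 it was 0.63, with 13 higher, and without intact replicate 2 it was 0.52, with 11 higher. With splenectomized replicate 1 or 2 left out, 12 were higher. Among them Loxl4 was dim, at 16.3 and 1.10 in intact and at 3.30 and 15.3 in splenectomized mice, with overlapping groups. Tgm2, the tissue transglutaminase, was at 1693 and 1545 in intact and at 3051 and 2679.9 in splenectomized mice, a fold of 1.77 (adjusted p = 0.239 in limma). Loxl1, a relative of Lox that acts on elastin, was at 400.3 and 402 in intact and at 633 and 641 in splenectomized mice, a fold of 1.59 (adjusted p = 0.294 in limma). For Loxl1 the intact pair was nearly equal, and in both genes all splenectomized arrays lay above all intact arrays.

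Matricellular proteins other than Sparc, Tnc and Postn showed a median log2 fold change of 0.59 across 13 tested genes, of which 11 were higher, 8 of them with no overlap. Thbs2, thrombospondin 2, was at 232 and 245 in intact and at 487 and 514 in splenectomized mice, a fold of 2.10 (adjusted p = 0.173 in limma). Tgfbi, a corneal matrix protein induced by transforming growth factor beta, was at 2599 and 2703 in intact and at 4429 and 3899 in splenectomized mice, 1.57-fold higher. Not all went this way, as 2 genes of the list were lower with no overlap, and the median was 0.29 without intact replicate 1.

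For other small leucine-rich proteoglycans the median was 0.58 across 9 tested genes, with 8 higher, but 3 with no overlap. Bgn, biglycan, was at 1955 and 2032 in intact and at 2775 and 3197 in splenectomized mice, 1.49-fold higher. Aspn, asporin, was at 68.4 and 146 in intact and at 226 and 208 in splenectomized mice, 2.17-fold higher. Without intact replicate 1 the median of this list was -0.02, with 4 of 9 higher, and without intact replicate 2 it was 1.35. Aspn was lowest on intact replicate 1, without which its fold was 1.49, and Bgn, like Lum, was nearly equal on the intact arrays.

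Further genes of the corneal stroma gave a median of 0.57 over 11 tested genes, with 9 higher and 5 with no overlap. Without intact replicate 1 the median was 0.12, with 6 higher, and without intact replicate 2 it was 1.07. Col5a1, a collagen that nucleates corneal fibrils, was at 414 and 220.3 in intact and at 531 and 583 in splenectomized mice. Thbd, thrombomodulin, was at 73.8 and 98.3 in intact and at 135 and 119.5 in splenectomized mice. Of the further genes of activated fibroblasts, 9 of 11 tested were higher and 7 with no overlap, with a median of 0.43. Col1a1, the main fibrillar collagen, was at 584 and 492 in intact and at 1038 and 1047 in splenectomized mice, a fold of 1.94 (adjusted p = 0.203 in limma). Cthrc1, a secreted protein of collagen-producing fibroblasts, was 1.62-fold higher.

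Receptors for fibronectin and collagen had a median of 0.41 over 13 tested genes, 12 of them higher and 8 with no overlap, and of 0.27 without intact replicate 1 and 0.62 without intact replicate 2. The integrin genes Itgb1 and Itga1, which together form a collagen receptor, were 1.60-fold and 2.03-fold higher. Ligands and receptors of the platelet-derived growth factor system other than Pdgfrb were all 5 higher, with a median of 0.37. This median was 0.27 without intact replicate 1 and 0.67 without intact replicate 2. Pdgfra, the receptor typical of fibroblasts, was at 224 and 277 in intact and at 366 and 359 in splenectomized mice, 1.46-fold higher, and the ligand gene Pdgfc was 1.88-fold higher. Genes of transforming growth factor beta signalling were all 13 higher, 6 with no overlap, with a median of 0.31. Without intact replicate 1 the median was 0.12, with 10 higher, and without intact replicate 2 it was 0.57. Of these, Ltbp2, a latent binding protein, was 1.63-fold higher with a nearly equal intact pair, at 124 and 123, beside 195 and 208.

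The list of pericyte and smooth muscle genes came closest to the median of all genes, as did Acta2. Its median was 0.11 over 9 tested genes, with 5 higher, 4 lower, 2 higher with no overlap and 0 at an unadjusted p under 0.05 in limma. The mean level of the list was nonetheless higher in splenectomized mice with no overlap. It was -0.17 and 0.02 on the intact and 0.10 and 0.05 on the splenectomized arrays. Tagln, an actin-binding protein of contractile cells, was at 405 and 288 in intact and at 357 and 326 in splenectomized mice, with intact replicate 1 the highest and intact replicate 2 the lowest, the same order as for Acta2 at the ends. The 2 genes of smallest p were Notch3 and Rgs5, at 1.55-fold and 1.42-fold higher, and 1.29-fold and 1.09-fold without intact replicate 1. The median of the list was 0.05 without intact replicate 1 and 0.21 without intact replicate 2.

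**Figure D4:**
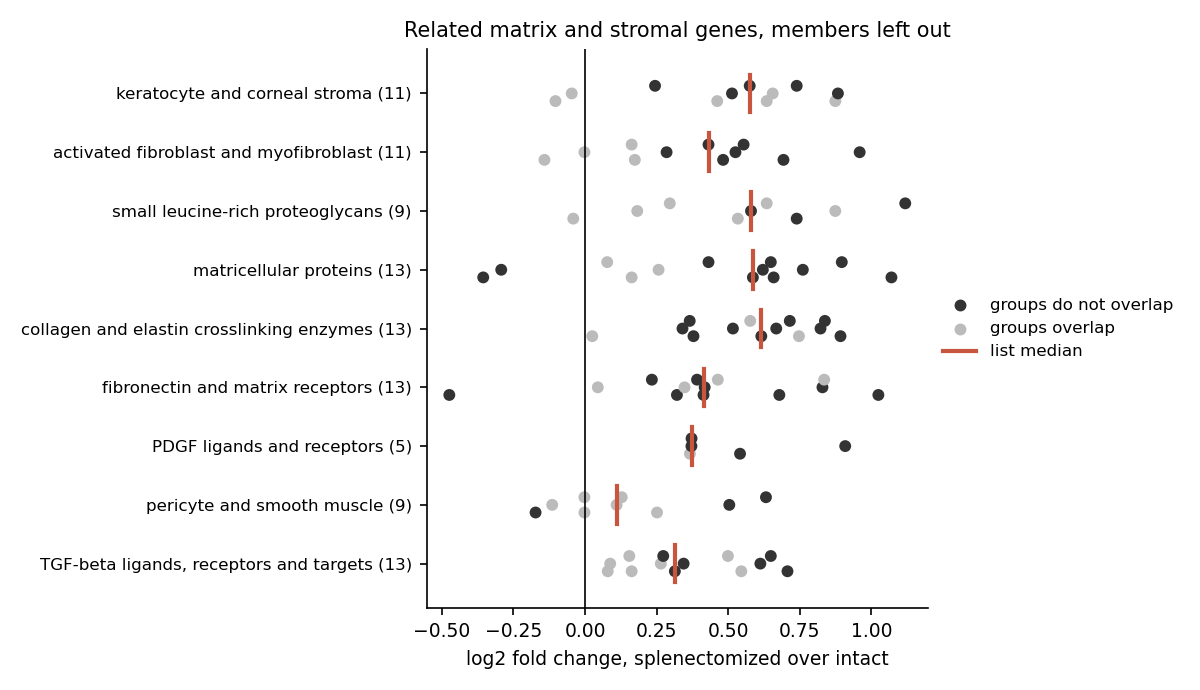
Log2 fold change of splenectomized over intact for each tested gene of the 9 lists, with the 10 matrix genes left out, black points where the groups do not overlap and a red bar at each median. Medians lie between 0.31 and 0.62 for 8 lists and at 0.11 for pericyte and smooth muscle genes.

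The genes whose pattern over the 4 arrays was nearest to each level were found among 13138 other genes, by Euclidean distance between log2 profiles centred on their means. Nearest to the keratocyte level were Cdc42bpg, Id3, Col8a1, Foxn3 and Ghr, at distances of 0.02 to 0.04. Of these Col8a1, a collagen of Descemet's membrane at the back of the cornea, was at 286 and 479.8 in intact and at 550.1 and 507 in splenectomized mice. Nearest to the activated fibroblast level were Tesc, Ehd1, Sod2, AB124611 and Tlr2, at 0.02 to 0.07. Among them Tlr2, a receptor for bacterial lipoproteins, was at 292 and 249 in intact and at 378 and 372 in splenectomized mice.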

How the data were processed

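Signals and detection calls of 4 arrays were analysed. The deposited values are linear signal intensities, for which the submitters' processing notes name GCOS 1.4 and MAS5. The scaling target was not given in the sources used here. The mean signal after trimming 2% at each end was 150 on every array. Per the labels, 500 ng of total RNA was labelled with biotin by a 3'-IVT Express kit.

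Signals were used on the log2 scale, with 0 raised to 0.1 and 64 control probe sets left out. Names came from the platform annotation, which gave a single symbol to 34958 probe sets. Splenectomized was compared with intact by a linear model of limma 3.58.1 (R 4.3.3; moderated variances with an intensity trend, 2 residual degrees of freedom) over 26285 probe sets, with two-sided p-values adjusted by the Benjamini-Hochberg method and a threshold of 0.05. The same numbers on arrays of different groups pair nothing in the labels, so no block was used. The fit was tested on simulated data with known changes. Exact permutation of 4 arrays has too few assignments to be of use, so levels are given without a test.

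The 10 genes and the lists were chosen with earlier results of these data known. Named were all 10 genes, the 2 genes of smallest unadjusted p in each list and the 5 genes nearest in pattern to each level. Epyc, Tagln, Best1, Eif2s3y, Kdm5d, Uty, Xist, Aldh3a1, Chst5, Loxl4, Actg2, Lmod1 and Myocd were named after their values were seen. Col8a1 and Tlr2 were picked among the nearest for their values. Alternatives were other scalings, a pseudocount of 16, other detection filters, no intensity trend, 1 probe set per gene, no probe sets prone to cross-hybridization, a replicate block and leaving out each array. The number of arrays limits precision. Figures were drawn with matplotlib 3.10.9.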

Additional observations from a re-analysis of the deposited data

How the results depend on the processing

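Of 14 member probe sets under 13 alternatives, 166 values kept their direction and side of the threshold, 2 reversed and 6 passed where they had not. The reversals were Acta2, from -0.25 to 0.15 with an array left out and above 0 without intact replicate 1, and the dimmest Lox probe set, from -0.12 to 1.04 and below 0 without splenectomized replicate 1. Without intact replicate 2, Kera, Dcn, Fn1, Postn and 1 Sparc probe set passed, and without intact replicate 1, Tnc did. Such fits take their spread from the remaining pair alone, and the lone array is assumed to vary like it. The number of member probe sets past the threshold then ranged from 0 to 5, and that of all probe sets from 0 to 3574. The count of members higher at an unadjusted p under 0.05, 7 in the fit reported, ranged from 1 to 10 when an array was left out. It was 2 with arrays centred on their median, 3 with no intensity trend and 3 with the replicate block, and 6 to 7 in the other settings. The median of members was 0.36 with centred arrays, beside -0.06 over all probe sets tested. With an array left out it was 0.45 to 0.55, beside -0.06 to 0.09. Quantile normalization called 1 probe set of all, none of them a member. The replicate block called 0, with 1056 at an unadjusted p under 0.05 against 2120 without it. Deviations of same-numbered arrays correlated at -0.33, and a crossed block, added after the data were seen, called 358, with 4314 at an unadjusted p under 0.05. The activated fibroblast minus keratocyte difference of -0.05 ranged from -0.57 to 0.47 with an array left out, on either side of 0, and from -0.05 to 0.10 in the other settings. The cause of each change was not tested. The low signal of Kera, Absent on intact replicate 1 only, and 2 arrays a group limit what can be resolved.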
